A study of Mus musculus with 95 samples.

Results

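The prohormone processing enzymes are the gene products that turn hormone precursors into active peptides inside the secretory granule, together with their inhibitor, a chaperone and an oxidase of the endoplasmic reticulum. The 7 genes Pcsk1, Pcsk2, Cpe, Pcsk1n, Scg5, Pam and Ero1lb were chosen by symbol out of 20638 genes in the count table, and all 7 passed the low-count filter. RNA-seq was run on pancreatic islets of mice of the strains that founded the Diversity Outbred stock, kept on a high-fat, high-sugar diet given as 45% fat. The set holds 95 libraries, each named here by the number in its label, from 1 to 100 with 5 numbers not used. The labels give no strain, sex or age for a library, so all form 1 set, no groups are compared, and p-values measure only the spread between these libraries. Nothing in the labels says that each library came from its own animal.

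An islet hormone is made as a longer precursor that is folded and oxidised in the endoplasmic reticulum and cut in the granule. Pcsk1 and Pcsk2 encode the convertases that cut after pairs of basic residues. Pcsk1n encodes proSAAS, an inhibitor of the Pcsk1 enzyme, and Scg5 encodes a chaperone that the Pcsk2 enzyme needs to become active. Cpe encodes carboxypeptidase E, which trims the basic residues left at the new ends. Pam encodes the enzyme that turns a terminal glycine into an amide, as in amylin and pancreatic polypeptide. Ero1lb, now named Ero1b, encodes a pancreatic oxidase that supplies disulfide bonds to folding proinsulin.

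The cutting sites in the hormone precursors show what these enzymes act on. The coding sequences of Ins1, Ins2, Iapp, Gcg, Sst, Ppy, Pyy and Ghrl in GENCODE M21 held 20 pairs of adjacent lysine or arginine codons over the 8 precursors. Of these, 5 followed directly on a glycine codon, in 4 precursors: Iapp, Gcg, Ppy and Pyy. The insulin precursors had 2 pairs each and the glucagon precursor had 7. A pair of basic codons is a match of letters and not every one is cut. The following stretches, 5′ to 3′, have the codon pair in capitals, with codons counted from the start codon. They are shown because the first pair in each insulin precursor lies between the B chain and the C-peptide and the second between the C-peptide and the A chain. The Iapp, Ppy and Pyy pairs follow the glycine that Pam acts on, the Gcg pairs lie at the start and the end of glucagon, and the Sst pair precedes the short somatostatin.
Ins1 codon 55: acacccaagtccCGCCGTgaagtggag
Ins1 codon 86: gtggcccggcagAAGCGTggcattgtg
Ins2 codon 55: acacccatgtccCGCCGTgaagtggag
Ins2 codon 88: gtggcccagcagAAGCGTggcattgta
Gcg codon 51: atgaatgaagacAAACGCcactcacag
Gcg codon 82: ttgatgaacaccAAGAGGaaccggaac
Sst codon 101: gcaccccgggaaCGCAAAgctggctgc
Iapp codon 76: aatacatatggcAAGAGGaatgcggca
Ppy codon 67: cctaggtatgggAAGAGAgccgaggag
Pyy codon 66: cagcggtatggaAAAAGAgatgtcccc
In each insulin precursor the first pair is 2 arginine codons and the second a lysine codon followed by an arginine codon. The bases just before the Iapp, Ppy and Pyy pairs are glycine codons.

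Promoter sequences were in the RefSeq table, build GRCm38.p6, for 6 of the 7 genes. They are shown for Pcsk1 and Pcsk2, which differ in composition, and for Ero1lb, which held a rare motif. The 250 bases before each RefSeq start follow, read along the gene's strand.
Pcsk1 chr13:75089607-75089856, plus strand: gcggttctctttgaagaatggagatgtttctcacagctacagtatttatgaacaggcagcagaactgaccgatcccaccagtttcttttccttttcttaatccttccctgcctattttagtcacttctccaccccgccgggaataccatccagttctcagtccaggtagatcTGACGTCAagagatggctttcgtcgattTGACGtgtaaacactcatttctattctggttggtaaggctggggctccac
Pcsk2 chr2:143545883-143546132, plus strand: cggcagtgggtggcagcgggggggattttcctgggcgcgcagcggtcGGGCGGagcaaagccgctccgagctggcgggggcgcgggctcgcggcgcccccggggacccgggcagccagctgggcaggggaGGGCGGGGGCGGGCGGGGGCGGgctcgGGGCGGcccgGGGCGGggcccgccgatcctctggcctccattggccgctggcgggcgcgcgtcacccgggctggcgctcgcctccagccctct
Ero1lb chr13:12565633-12565882, plus strand: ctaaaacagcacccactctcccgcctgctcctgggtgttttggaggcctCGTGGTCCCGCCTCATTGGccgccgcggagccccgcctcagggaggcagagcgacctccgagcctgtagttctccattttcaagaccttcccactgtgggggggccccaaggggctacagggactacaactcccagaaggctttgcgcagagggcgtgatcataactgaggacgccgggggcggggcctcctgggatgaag
Capitals in Pcsk1 mark the cyclic AMP response element TGACGTCA and its 5-base form TGACG, searched on both strands, and the 8-base form holds the 5-base form on each strand. The 8-base form was in 1.55% of 32851 mouse promoters of the same length and the 5-base form in 17.8%. Capitals in Pcsk2 mark 7 copies of the GC box GGGCGG, some of them overlapping, in a promoter of 82.4% G and C, against 46.8% in Pcsk1. The GC box was in 32.7% of promoters. Capitals in Ero1lb mark, on the reverse strand, the endoplasmic reticulum stress response element, CCAAT and then CCACG after 9 bases of any kind, which was in 0.113% of promoters. These matches are descriptions of letters.

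Islet libraries held 16411782 to 34357227 counts, with a median of 26552716. The 7 genes held 1.08% of counts at the median, with 0.378% in library 54 (95% Wilson interval 0.375% to 0.380%) at the lowest and 1.34% in library 82 (1.34% to 1.35%) at the highest. The 8 hormone genes took a median of 19.7%. Intervals cover counting error only. Defining markers of beta, alpha, delta and PP cells were all detected. The 10 beta cell markers took a median of 17.7% of counts, the 8 alpha cell markers 1.37%, the 4 delta cell markers 0.270% and the 2 PP cell markers 0.197%. The 18 acinar markers, from the digestive enzyme cells around the islets, took 0.227% to 34.9%. In bulk islets, fewer cells of a type and less RNA per cell cannot be told apart.

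Levels are given as CPM, counts scaled to a common adjusted library size, and comparisons between genes as CPM per kb of exon. The highest of the 7 per kb was Cpe, with a median of 1090 CPM per kb. Scg5 followed at 528, Pcsk2 at 348, Pcsk1n at 328 and Ero1lb at 299.9 CPM per kb. Pcsk1 and Pam were the lowest at 59.2 and 38.5 CPM per kb. Cpe was above Scg5 in 95 of 95 libraries and Ero1lb above Pcsk1 in 95 of 95. Neighbours in the middle of the order did not separate: Scg5 was above Pcsk2 in 67 libraries, Pcsk2 above Pcsk1n in 55 and Pcsk1n above Ero1lb in 59. Per kb of the longest transcript, the orders of Ero1lb and Pcsk1n and of Pam and Pcsk1 turned round, with 471 against 328 and 112 against 65.9 CPM per kb. All 7 genes were among the more abundant of the 15766 kept, with ranks by median CPM from 22 for Cpe, 24 for Pcsk2 and 33 for Ero1lb to 204 for Pcsk1.

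The convertase gene Pcsk1 (ENSMUSG00000021587, GRCm38 chromosome 13, 75089826 to 75132498, plus strand) ranged from 120.5 CPM in library 97 through a median of 332 to 505 CPM in library 22. Pcsk2 (ENSMUSG00000027419, chromosome 2, 143546156 to 143816285, plus strand) ranged from 1001 CPM in library 97 through 2754 to 3918 CPM in library 82. Its biological coefficient of variation, which holds all differences between libraries beyond counting error, was 20.1%, the lowest of the 7 genes, and that of Pcsk1 was 25.7%. The median over all kept genes was 26.0%. Pcsk2 shares 6.10% of its 31-base words with other genes, most often with an overlapping antisense gene. The use of strand in counting was not given in the sources used here.

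The inhibitor gene Pcsk1n (ENSMUSG00000039278, chromosome X, 7919822 to 7924410, plus strand) ranged from 286 CPM in library 97 through 718 to 1266 CPM in library 17. The chaperone gene Scg5 (ENSMUSG00000023236, chromosome 2, 113776362 to 113829121, minus strand) ranged from 325 CPM in library 54 through 829 to 1489 CPM in library 90. Scg5 had the largest coefficient of variation of the 7, 35.4%, which was above that of 63.5% of kept genes, and Pcsk1n had 26.5%. Pcsk1n shares 4.85% of its words with other genes, most often with Eras on the opposite strand.

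The carboxypeptidase gene Cpe (ENSMUSG00000037852, chromosome 8, 64592558 to 64693040, minus strand) ranged from 891 CPM in library 97 through 2843 to 4131 CPM in library 90. The amidating enzyme gene Pam (ENSMUSG00000026335, chromosome 1, 97795114 to 98095646, minus strand) ranged from 169.6 CPM in library 38 through 458 to 721 CPM in library 11. The oxidase gene Ero1lb (ENSMUSG00000057069, chromosome 13, 12565883 to 12609526, plus strand) ranged from 825 CPM in library 89 through 1995 to 4559.9 CPM in library 1. Library 97 thus held the lowest level of 4 of the 7 genes, and also that of the hormone genes Ins1, Ins2, Iapp and Ppy. It also held the highest share of macrophage and lymphocyte markers, 0.267% (0.264% to 0.269%) and 0.118% (0.116% to 0.119%) of counts, and the part of these cells in its levels was not tested. Ero1lb shares 11.6% of its words with other genes, most often with Gm18562, so a part of its counts is uncertain.

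**Figure D1:**
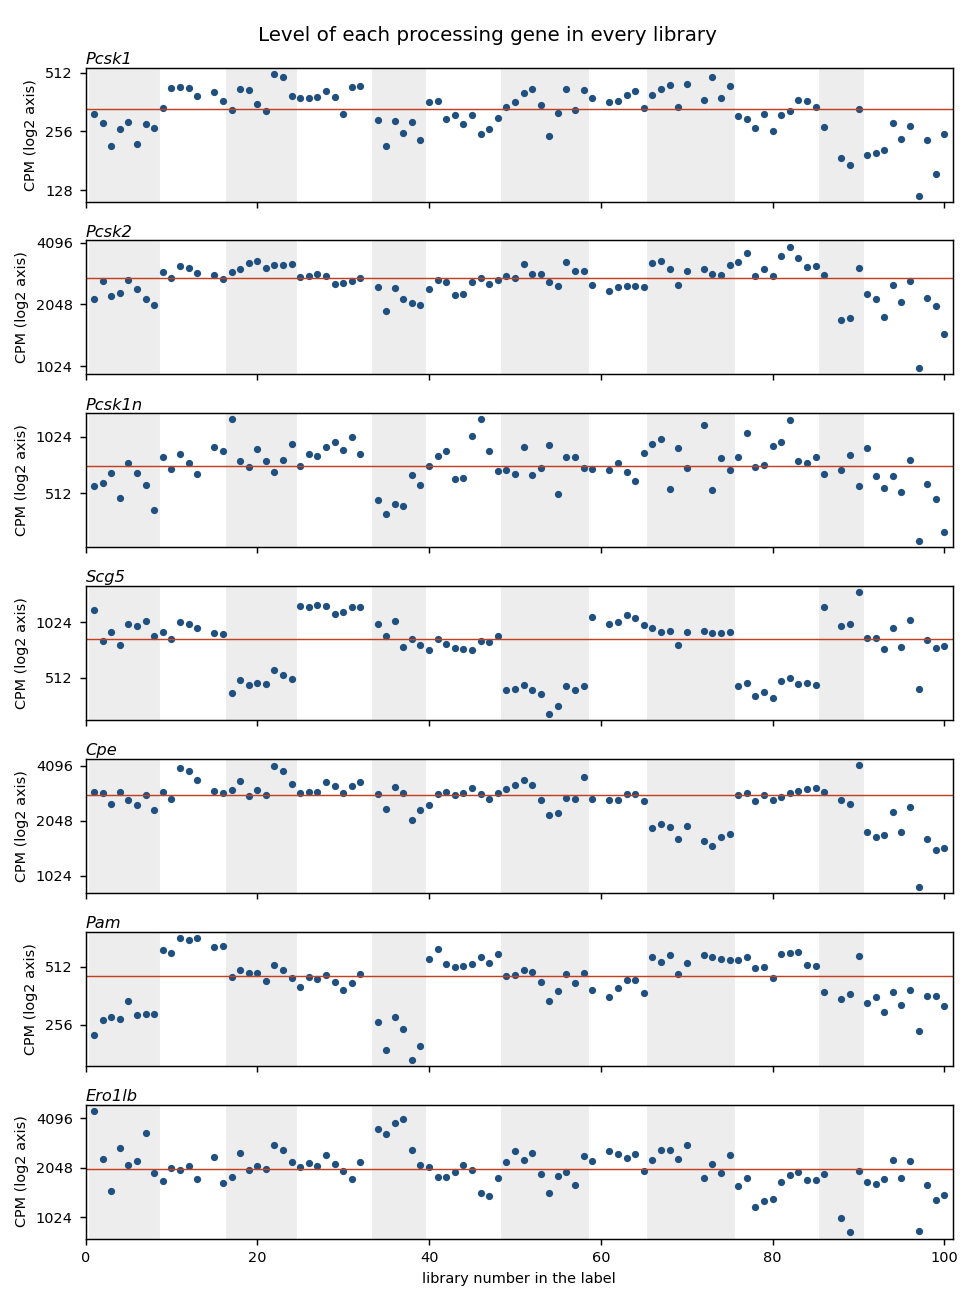
CPM of the 7 processing genes (log2 axis) against the library number in the label, 1 point per library, with the median of the 95 libraries as a line. Grey and white bands are 12 stretches of library numbers. Scg5 stands in level blocks, from 325 to 564 CPM in libraries 17 to 24, 49 to 58 and 76 to 85.

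The order of the library numbers carried much of the variation of Scg5 and Pam. The numbers were divided into 12 stretches at places where other genes were already known to change level; the stretches were drawn after the data had been seen and stand for no labelled condition. Scg5 had 423 to 564 CPM in libraries 17 to 24, 325 to 469 CPM in libraries 49 to 58 and 399 to 511 CPM in libraries 76 to 85. These stretches were the low blocks, and outside them only library 97, at 445 CPM, lay in their range. Libraries 25 to 32 had 1136 to 1265 CPM, libraries 59 to 65 had 984 to 1125 CPM and libraries 86 to 90 had 975 to 1489 CPM. Low and high blocks were picked from the values of Scg5 itself, so the gap between them is only a description. Differences between stretches held 90.9% of the variance of Scg5 on the log2 scale, more than for 97.3% of kept genes, and the median over all kept genes was 61.7%. Libraries with neighbouring numbers differed by a median of 0.10 log2 units in Scg5, against 0.51 over all pairs.

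Pam, the amidating enzyme gene, was low in other stretches than Scg5. It had 227 to 339 CPM in libraries 1 to 8 and 169.6 to 281 CPM in libraries 34 to 39. It had 604 to 721 CPM in libraries 9 to 16 and 512 to 632 CPM in libraries 40 to 48. These stretches were picked as low and high from the values of Pam itself, so the gap between them is only a description. Libraries 91 to 100, at 239 to 386 CPM, ran into the low range. Differences between stretches held 88.2% of its variance, more than for 95.5% of kept genes. Cpe was low in libraries 66 to 75, at 1493 to 1967 CPM, where Pam had 467 to 591 CPM and Scg5 774 to 947 CPM. Cpe was also low in libraries 91 to 100, at 891 to 2428 CPM, while libraries 76 to 85 had 2630 to 3086 CPM. The share between stretches was 74.1% for Cpe, 69.2% for Pcsk1, 61.5% for Pcsk2, 50.3% for Ero1lb and 45.4% for Pcsk1n.

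Each inhibitor or chaperone was set against its enzyme as a log2 ratio of CPM per kb. Pcsk1 over Pcsk2 was -2.55 at the median, with Pcsk2 5.86-fold higher, and ran from -3.19 in library 99 to -2.07 in library 100. Pcsk2 was therefore the higher convertase transcript in every one of the 95 libraries. Pcsk1n over Pcsk1 was 2.51 at the median, a 5.68-fold excess of the inhibitor's transcript, and ran from 1.5 in library 73 to 3.70 in library 46. Scg5 over Pcsk2 was 0.68 at the median and ran from -0.69 in library 54 to 1.53 in library 89. It was below 0 in 28 libraries and above 0 in 67. Differences between stretches held 96.8% of the variance of Scg5 over Pcsk2, 50.7% of that of Pcsk1 over Pcsk2 and 24.2% of that of Pcsk1n over Pcsk1. As a log2 ratio of shares of counts, with no length in it, the 7 genes together stood at -4.27 against the 8 hormone genes, from -4.56 in library 15 to -3.63 in library 68. Libraries 66 to 75, at -3.94 to -3.63, all lay above every other library. Ins2 had 53891 to 70898 CPM in them, against a median of 112723 CPM over the 95 libraries.

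**Figure D2:**
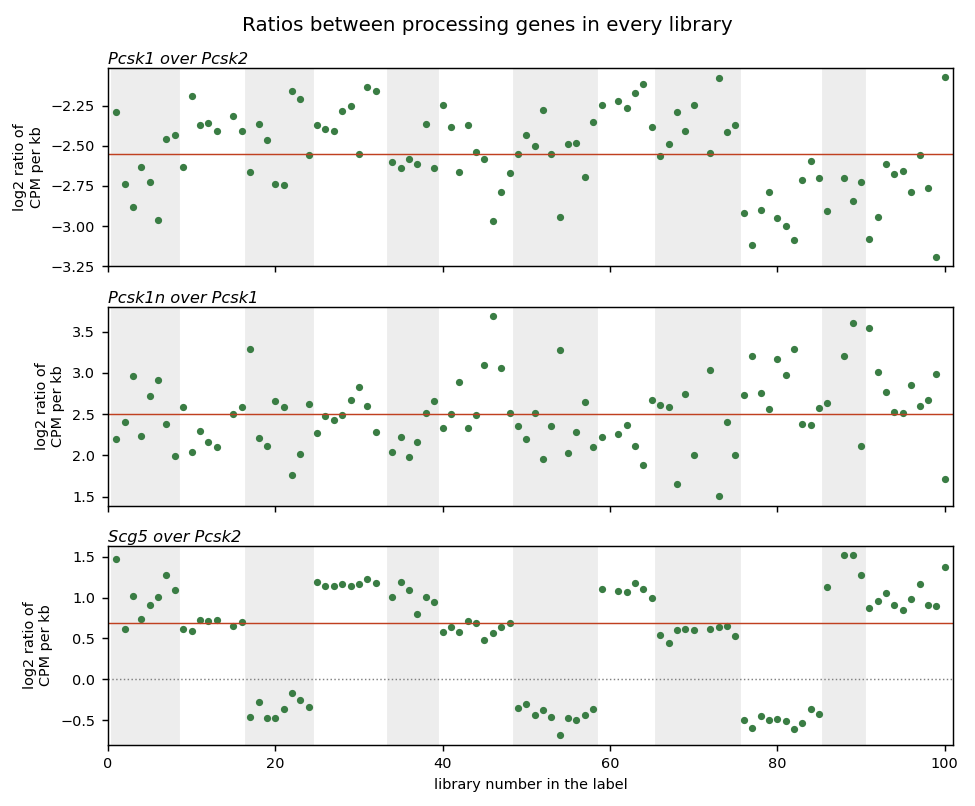
Log2 ratios of CPM per kb between processing genes against the library number, 1 point per library, with the median as a line and 0 dotted in the lowest panel. Scg5 over Pcsk2 lies at -0.69 to -0.16 in 28 libraries and at 0.44 to 1.53 in the other 67, and the other ratios show no such break.

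The processing genes were then set against the hormone genes in 1 model over all tested genes, with the summed insulin genes, Gcg, Sst and the summed acinar markers as covariates. A slope is the change in log2 level per log2 unit of a covariate with the others held. With the insulin genes, 6 of 7 processing genes had a positive slope that passed an adjusted p of 0.05 (edgeR quasi-likelihood test, Benjamini-Hochberg over 15744 genes). The background was high, with 31% of all tested genes called positive and 30.9% negative. The median slope was 0.41 over the 7 genes and 0.0032 over all genes tested. Cpe had the steepest slope of the 7, 0.90 ± 0.06 (SE, adjusted p = 1.34e-23). The slopes of the others that passed were 0.49 for Pcsk1n, 0.44 for Pcsk1, 0.41 for Ero1lb, 0.39 for Pam and 0.38 for Pcsk2, with SEs of 0.08 to 0.13. Scg5 had 0.17 ± 0.16 (adjusted p = 0.373). The model had no term for the stretches, so its SEs and p-values make no allowance for levels shared within a stretch.

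These slopes on insulin depended on which libraries entered. Without libraries numbered above 90, Cpe kept a slope of 0.79 ± 0.07, where 26.8% of tested genes were called positive, and the other 6 genes had -0.04 to 0.15, with adjusted p of 0.375 to 0.891. The 8 macrophage markers, all of them detected, took 0.00652% to 0.267% of counts in libraries 91 to 100 and 0.00309% to 0.0303% in libraries 1 to 90, and their part in these slopes was not tested. With the 12 stretches as a factor, 7 of 7 slopes on insulin were positive and passed, where 26.5% of tested genes were called positive. Ero1lb then had 0.83 ± 0.11, Cpe 0.72 ± 0.06 and Scg5 0.53 ± 0.05 (adjusted p = 1.88e-13).

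The slopes on the other endocrine hormones come from the same model. On Gcg, the glucagon gene of alpha cells, Pcsk2 had a slope of 0.23 ± 0.05 (adjusted p = 2.61e-05), Cpe 0.16 ± 0.04 (0.000238) and Ero1lb 0.20 ± 0.09 (0.0499), and 24.3% of tested genes were called positive. The call of Ero1lb lay at the threshold. The DESeq2 Wald test kept it (0.0329). In edgeR it was lost with DESeq2 size factors (0.0711), totals without acinar and hormone genes (0.0521) and no low-count filter (0.0571). It was also lost with no acinar covariate (0.0598) and with the stretches (0.0953). Pcsk2 is the convertase that makes glucagon in alpha cells. Without libraries above 90 none of these 3 genes, Pcsk2, Cpe and Ero1lb, passed in edgeR (adjusted p of 0.141, 0.171 and 0.458). There 1 of 7 genes, Pam, did, with a negative slope of -0.24, where 13.7% of tested genes were called negative. Pam had a positive slope on Gcg in libraries above 50, 0.23 ± 0.08 (adjusted p = 0.034), and with Gcg as the only covariate, 0.21 ± 0.06 (0.00609). With the stretches as a factor 4 of 7 genes passed on Gcg, all positive, where 1586 of 15744 tested genes were called positive. Pam then had 0.18 ± 0.04 (0.00253). On Sst, the somatostatin gene of delta cells, Pam had 0.35 ± 0.06 (adjusted p = 5.25e-07) and Pcsk1n 0.22 ± 0.05 (0.000755), where 23.1% of tested genes were called positive. Cpe fell with Sst at -0.13 ± 0.03 (0.000221), with 22.4% called negative. Without libraries above 90, 4 of 7 genes passed on Sst, 3 of them positive, with 21.4% of tested genes called positive and 23.3% negative. In libraries numbered above 50, neither Pam, with 0.0079 ± 0.08 (adjusted p = 0.96), nor Pcsk1n, with 0.10 ± 0.09 (0.462), passed on Sst. In libraries numbered 50 or lower, Cpe had -0.014 ± 0.04 (0.781) on Sst. With the stretches as a factor Cpe had -0.12 ± 0.06 on Sst (0.135), Pam had -0.10 ± 0.06 (0.28) and Pcsk1n 0.73 ± 0.10 (6.72e-07), where 9.75% of tested genes were called positive.

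On the acinar markers 0 of 7 slopes passed in edgeR with the 4 covariates over all libraries, and 2 had an unadjusted p under 0.05. The DESeq2 Wald test called 1, Scg5. Background calls in that edgeR fit were 16.5% positive and 21.1% negative. The lowest adjusted p was that of Scg5, 0.0527, with a slope of -0.06 ± 0.03.

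**Figure D3:**
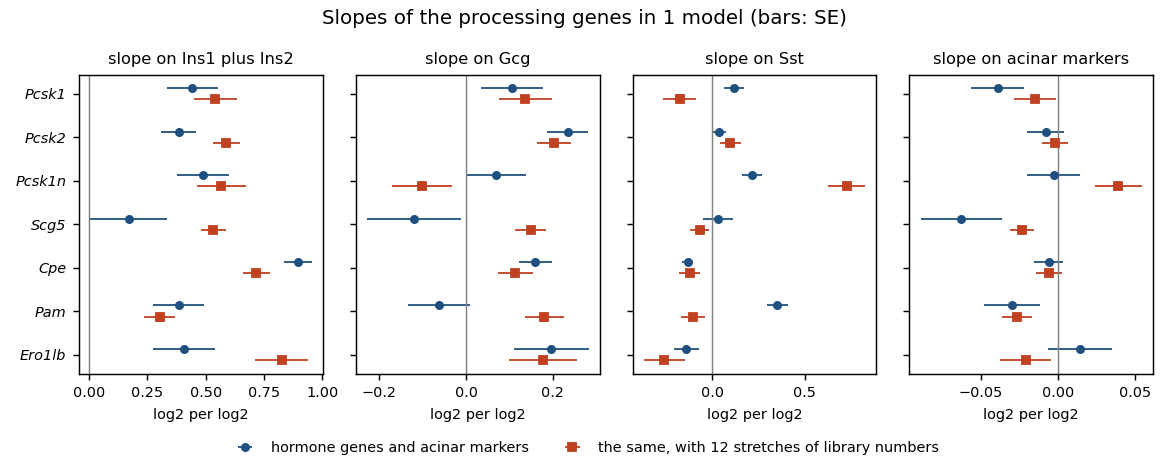
Slopes of the 7 processing genes on the insulin genes, Gcg, Sst and the acinar markers (log2 per log2, bars are SE), in circles from the model with these 4 covariates and in squares with the 12 stretches of library numbers added. Cpe stands at 0.90 on insulin in circles, and Pam on Sst moves to -0.10 in squares, against 0.35 in circles.

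The genes were also correlated in pairs over the 95 libraries by log2 CPM, with two-sided permutation tests of 100000 resamples adjusted over 15765 genes for each processing gene. The resamples mixed libraries freely across the stretches, so these p-values make no allowance for levels shared within a stretch. Scg5 was left out, since its level relative to Pcsk2 fell in separate clusters. Of 15 pairs among the other 6 genes 12 passed, all positive, by Spearman's rho. With DESeq2 size factors 11 positive pairs and 1 negative pair passed. There 2298 to 3795 of 15759 genes were called positive for each of the 6 genes, and 2287 to 4248 negative. Without libraries above 90, 8 positive pairs and 2 negative pairs passed, in libraries 50 or lower 10 positive and 2 negative pairs, and with the mean of each bin of 10 library numbers removed 8 passed, all positive. Of 48 pairs with a hormone gene 26 passed, 22 positive and 4 negative. The split was 14 positive and 7 negative without libraries above 90, 15 and 6 in libraries 50 or lower, and 18 and 11 with the mean of each stretch removed. The background of positive calls over all genes was 22% for Pcsk1, 19.1% for Pcsk2, 27% for Cpe, 16.5% for Pcsk1n, 18% for Pam and 19.6% for Ero1lb. Negative calls over all genes were 23.8% for Cpe and 17.6% for Ero1lb.

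Among the processing genes, Pcsk2 and Pam gave the highest rho, 0.71 (raw p = 1e-05, the smallest that the permutations can give, adjusted p = 0.000108). Their Pearson r was 0.69 (raw p = 1e-05, adjusted p = 6.05e-05) and was 0.70 without libraries 97 and 100, the farthest from the median of Pcsk2. The convertases Pcsk1 and Pcsk2 had rho 0.65 (raw p = 1e-05, adjusted p = 8.79e-05) and r 0.74 (raw p = 1e-05, adjusted p = 5.7e-05), with r 0.67 without libraries 97 and 99. Pcsk1n went with Pcsk2 at rho 0.54 and with Pam at 0.48, and with Pcsk1, whose enzyme it inhibits, at 0.29. With the mean of each stretch removed, Pcsk1 and Pcsk1n had rho -0.22, Pcsk1 and Pcsk2 0.38, and Pcsk2 and Pam 0.65. Those values also gave Scg5 a rho of 0.68 with Pcsk2 and with Pam.

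Of the hormone pairs, Cpe and Iapp had the highest rho, 0.81 (raw p = 1e-05, adjusted p = 5.46e-05). Their r was 0.92 (raw p = 1e-05, adjusted p = 3.92e-05) and stayed at 0.90 without libraries 97 and 99. Cpe had rho 0.79 with Ins2 and 0.63 with Ins1. With the stretch means removed these became 0.63 for Iapp, 0.69 for Ins2 and 0.73 for Ins1. Pam had rho 0.64 with Sst (raw p = 1e-05, adjusted p = 0.000107) and r 0.56 (raw p = 1e-05, adjusted p = 9.46e-05), with r 0.55 without libraries 35 and 38. With the stretch means removed the rho of Pam and Sst was 0.09. Pcsk2 had rho 0.43 with Gcg, and 0.41 with the stretch means removed. Ero1lb was the only one of the 6 genes with negative calls on more than 1 hormone gene, with rho -0.29 for Sst, -0.26 for Ppy and -0.27 for Pyy.

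**Figure D4:**
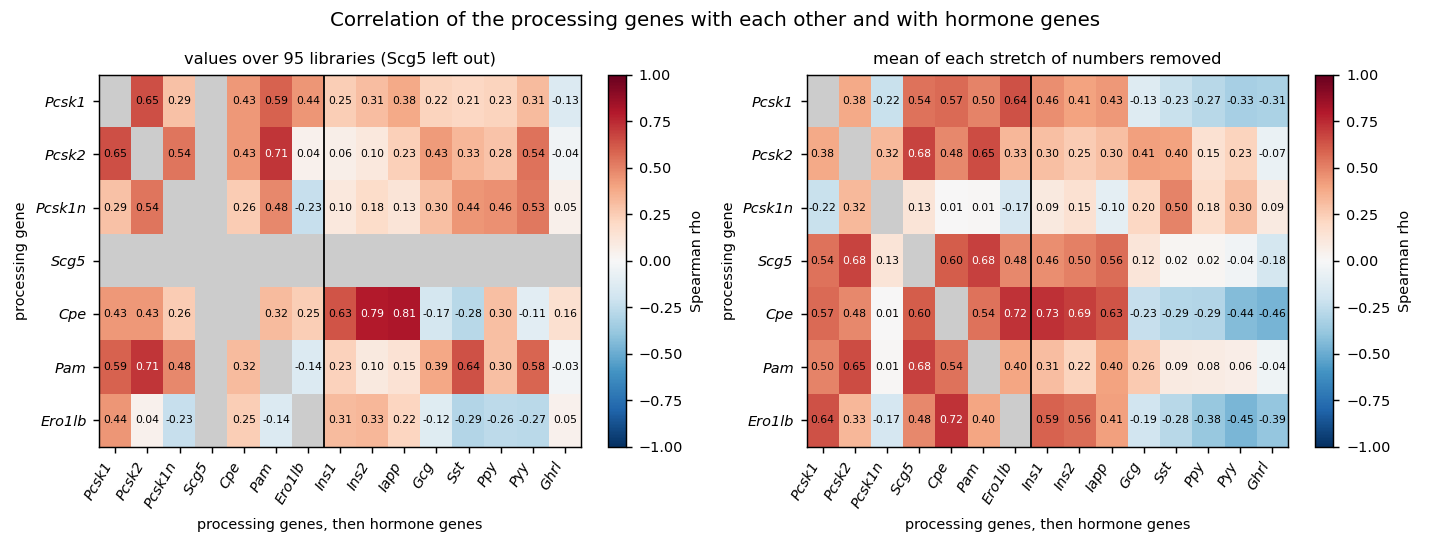
Spearman rho of each processing gene (rows) with the processing and hormone genes (columns), over the 95 libraries on the left and after the mean of each stretch of library numbers was removed on the right. Red is positive, and grey cells are not given. Cpe with Ins2 and Iapp is the deepest red on the left, at 0.79 and 0.81.

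**Figure D5:**
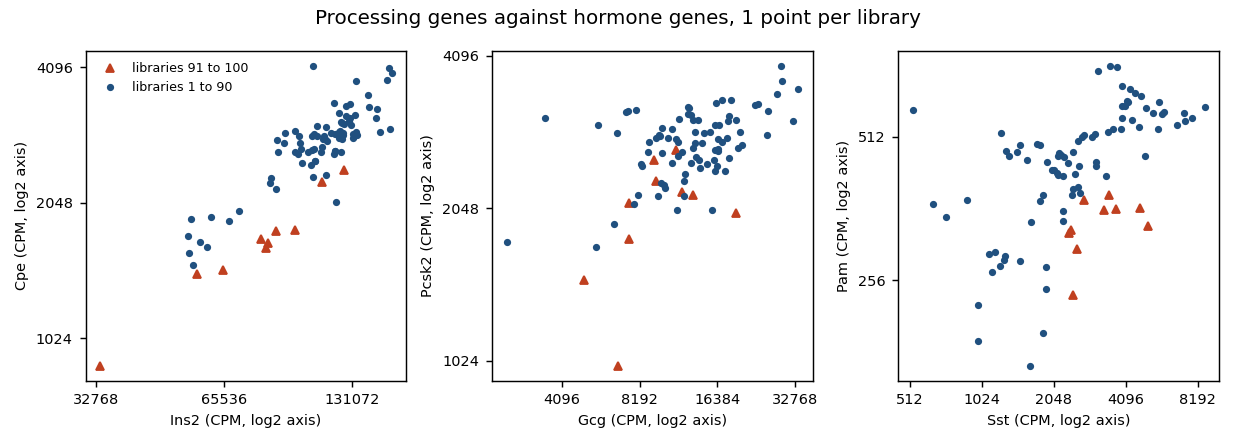
CPM of Cpe against Ins2, Pcsk2 against Gcg and Pam against Sst (log2 axes), 1 point per library, with triangles for libraries 91 to 100 and circles for libraries 1 to 90. Cpe tends to rise with Ins2, with scatter: library 90, highest in Cpe at 4131 CPM, has 106195 CPM of Ins2. Library 97 is lowest at 891 CPM of Cpe.

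Other genes of the processing route were counted from lists chosen with earlier results of these data known, against the same model, in which 31% of all tested genes were called positive on insulin and 30.9% negative. Of the other proprotein convertases 2 of 7 were positive and 1 negative, and their median slope was 0.20. Mbtps1, the site-1 protease, was the highest of them at a median of 12.9 CPM per kb, and Furin, the convertase of the Golgi, had 10.2, both under the 59.2 of Pcsk1. Pcsk4 had the widest spread between the 10th and 90th percentiles, 2.24 log2 units. Of 5 other carboxypeptidases measured 2 were positive and 2 negative on insulin. Cpn1 was the highest at 19.8 CPM per kb, against 1090 for Cpe, and Cpxm1 had the widest spread, 3.95 log2 units. Cpz was not analysed here.

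Of 5 other peptide-modifying and copper supply genes 2 were positive on insulin and 1 negative, beside the 31% and 30.9% of all tested genes. Atox1, a copper chaperone, was the highest at 20.4 CPM per kb, and the glutaminyl cyclase gene Qpct had the widest spread, 3.88 log2 units. Of 5 granin genes, the granule matrix proteins, 3 were positive on insulin, with a median slope of 0.67. Chga was the highest of them at 3847 CPM per kb, and Vgf had the widest spread, 3.52 log2 units. Of 10 genes of the granule proton pump and zinc transport, which acidify and load the granule, 9 were positive on insulin, with a median slope of 0.33. Slc30a8, the zinc transporter, was both the highest, at 405 CPM per kb, and the widest, at 1.02 log2 units. Of 17 genes of oxidative folding in the endoplasmic reticulum 9 were positive on insulin and 3 negative, with a median slope of 0.16, where the median over all genes tested was 0.0032. Hspa5, the main luminal chaperone, was the highest at 344 CPM per kb. Prdx4, a peroxidase that also makes disulfide bonds, had the widest spread at 2.47 log2 units.

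The genes whose pattern over the 95 libraries was most like each processing gene were ranked by Spearman's rho of log2 CPM, leaving out processing and hormone genes. For Pcsk1 they were Triqk (0.78), Gdap1 (0.78), Etnk1 (0.78), Map2 (0.77) and Ncstn (0.76). For Pcsk2 they were Sdk1 (0.78), Adgrv1 (0.78), Cacna2d1 (0.74), Calb1 (0.74) and Psd3 (0.74). Cacna2d1 encodes a subunit of voltage-gated calcium channels and Calb1 the calcium buffer calbindin. For Cpe they were Maged1 (0.81), Rnf130 (0.80), Tspan15 (0.79), Glb1l2 (0.78) and Stim1 (0.78), the last a calcium sensor of the endoplasmic reticulum. For Pcsk1n they were C1qtnf4 (0.77), Spint2 (0.77), Apoa1bp (0.73), Vps51 (0.72) and Slc29a4 (0.72), and Spint2 encodes a membrane inhibitor of serine proteases. For Pam they were Ids (0.84), Nalcn (0.83), Sez6l2 (0.82), Scn3a (0.81) and Abcc4 (0.80). Nalcn and Scn3a encode sodium channels and Ids a lysosomal sulfatase. For Ero1lb they were Gpr45 (0.77), Cand1 (0.74), Cyb5b (0.73), Armc9 (0.71) and Lgi1 (0.71). For Scg5 they included Plekhb2, Nudcd3, Ccdc85a and Gm8752, with no value given since its levels fell in separate clusters. These values share library and stretch effects, and are a description over the 95 libraries.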

How the data were processed

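Per the labels' protocols, the 95 islet libraries hold polyadenylated RNA. The authors deposited estimated counts per gene, not normalized, of which 67.7% were whole numbers to within 1e-06, and variance-stabilised values on a scale close to log2, used only as an alternative. The submitters' processing notes name GRCm38 and DESeq2, without roles. The aligner, counter and strand setting are not given in the sources used here. Gene positions came from the deposited annotation and exon lengths from GENCODE M21, in which 20532 of 20638 genes matched.

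Estimated counts were rounded to whole numbers. CPM used TMM factors of edgeR 4.0.16, from 0.465 to 1.35, and log2 CPM a prior count of 2. A gene was kept if 10 or more libraries had at least 1 CPM of it (15766 genes). Slopes came from edgeR's quasi-likelihood test with 4 covariates, whose own genes were not tested, and calls were made at an adjusted p under 0.05. The steps were tested on simulated counts. The labels put no library in a group, so all are unassigned. The 7 members and the lists were chosen with earlier results of these data known. Genes named are the members, the hormone genes, the 5 most alike each member, and in each list the highest per kb and the widest; 1 gene that meets this rule is not reported here. Genes named beyond that (Furin) were chosen after their values were seen, as were the 12 stretches of library numbers. Protein sequences were not used here, so codon pairs stand in for the planned residue pairs. Alternatives were DESeq2 1.42.0 size factors, tests and dispersions, totals without acinar and hormone genes, no low-count filter, another prior count, subsets by library number, library number terms, and single or fewer covariates.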

Additional observations from a re-analysis of the deposited data

How the results depend on the processing

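Without libraries numbered above 90, the members with a slope on insulin were 1 of 7 (6 over all libraries), on Gcg 1 (against 3), and on the acinar markers 2 (against 0), and the genes called on Gcg 4525 (against 7681). Of the 15406 genes tested there, 4123 were called positive and 3562 negative on insulin. On the acinar markers 2987 were called positive and 3354 negative. In libraries numbered 50 or lower, 1 member had a slope on insulin and 0 on Gcg (1 at an unadjusted p under 0.05), where edgeR called 67 genes on insulin (against 9742), 0 on Gcg (1613 at an unadjusted p under 0.05) and 3729 on the acinar markers (against 5911). Above 50, 2735 genes were called on Sst (against 7160) and 2745 on the acinar markers. On the acinar markers the DESeq2 Wald test called 1 member, where 2718 of 15744 genes were called positive and 3547 negative. With bins of 10 library numbers 1 member was called, where 2258 genes were positive and 3334 negative. With the 12 stretches 3 members were called, where 2358 genes were positive and 3366 negative. With each covariate alone, 5118 genes were called on Gcg, and 4757 on Sst with 5 members. There 4 members were called on the acinar markers, all negative, where 4739 of 15744 genes were called, 2652 of them negative. With the stretches, 3034 genes were called on Gcg and 2675 on Sst, with 1 member on Sst.

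Slopes that turned sign included Scg5 on insulin (-0.040 without libraries above 90, -0.074 above 50) and Pcsk1n on insulin (-0.10 in libraries 50 or lower). They also included Ero1lb on Gcg (-0.090 above 50, -0.022 alone), Cpe on Gcg (-0.088 alone) and Pam on Sst (-0.10 with stretches). Some slopes that turned sign passed in edgeR. Ero1lb on Sst had 0.30 above 50 (adjusted p = 0.0444), against -0.14 over all libraries. Pam on Gcg had 0.23 above 50 (0.034) and 0.18 with stretches (0.00253), against -0.06. Scg5 on Gcg had 0.15 with stretches (0.00172), against -0.12. Pcsk1 on Sst, at 0.12 over all libraries, had -0.17 with stretches (0.171). Correlations that turned sign in libraries 50 or lower were Pcsk1 with Ero1lb (-0.0087), Cpe with Sst (0.093) and Ero1lb with Ins1 (-0.024). Above 50 they were Ero1lb with Sst (0.11) and with Pyy (0.10). With stretch means removed they were Pcsk1 with Pcsk1n (-0.22) and Pyy (-0.33), and Cpe with Ppy (-0.29). The cause was not tested. With totals without acinar and hormone genes, median CPM became 469 for Pcsk1, 3824 for Pcsk2, 3965 for Cpe, 999 for Pcsk1n, 1145 for Scg5, 638 for Pam and 2786 for Ero1lb, since the totals are smaller. Pcsk1 over Pcsk2 was -3.14 by longest transcript. No paired analysis was possible because the labels give no groups.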

Other observations

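The log2 ratio of Scg5 over Pcsk2 in CPM per kb fell in separate clusters, with no value between -0.16 and 0.44, a stretch of 27.3% of the range. Below it lay 28 libraries, those numbered 17 to 24, 49 to 58 and 76 to 85, and above it the other 67. The values of the 8 libraries numbered 17 to 24 were -0.46, -0.28, -0.48, -0.48, -0.37, -0.16, -0.26 and -0.34. Those of libraries 49 to 58 were -0.35, -0.30, -0.44, -0.38, -0.46, -0.69, -0.47, -0.50, -0.44 and -0.36. Those of libraries 76 to 85 were -0.50, -0.60, -0.45, -0.50, -0.49, -0.51, -0.61, -0.53, -0.37 and -0.42. Above the break, values were 0.62 to 1.47 in libraries 1 to 8, 0.59 to 0.73 in 9 to 16, 1.14 to 1.23 in 25 to 32, 0.80 to 1.19 in 34 to 39 and 0.48 to 0.72 in 40 to 48. They were 1.00 to 1.18 in libraries 59 to 65, 0.44 to 0.65 in 66 to 75, 1.13 to 1.53 in 86 to 90 and 0.85 to 1.37 in 91 to 100. The level of Scg5 alone had a narrower break, 16.1% of its log2 range, between 564 and 722 CPM, with library 97 (445 CPM) also below it.

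Ero1lb had a break near the top of its range: its 6 highest values began at 3287 CPM, with the next lower value at 2831 CPM. They were those of libraries 1, 7, 34, 35, 36 and 37, all within the stretches 1 to 8 and 34 to 39. A break was sought with at least 6 libraries on each side, so this one lies at the edge of the search. This break was 8.75% of its log2 range.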
